A study of Mus musculus with 4 samples.

Results

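Rn45s encodes the 45S precursor of ribosomal RNA, and its assembled copy on mouse chromosome 17 was examined here as an interval of DNA methylation calls. The interval was a stretch of 7001 bp of chromosome 17 in the mm9 build, and its members were all CpGs that the deposited tables place there, from 39979959 to 39985654. It held 251 of the 1480609 CpGs that were covered in at least 1 library. The interval was chosen by its read coverage, since reads of the repeated ribosomal genes pile up on it, and earlier work on the same data had shown a genotype difference in it. Its depth and its genotype differences are therefore given as a description. Counts of CpGs past a threshold between genotypes are printed beside the share of all CpGs past it, except in some alternative runs. Nothing is drawn from any of these counts. The gene table used here is on another assembly, so a CpG could not be assigned to a spacer or to the 18S, 5.8S or 28S part, and no sequence is shown.

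Ribosomal RNA genes lie in tandem repeats on several mouse chromosomes and are transcribed by RNA polymerase I. The precursor is cut into the 18S, 5.8S and 28S ribosomal RNAs, while its external and internal transcribed spacers are removed. In a given cell some repeats are active and others silent, and silent repeats are known for CpG methylation at their promoters. Reads of all repeats that match the assembled copy end on the same positions, so a level in this interval is an average over repeats, cells and mice and cannot be assigned to 1 repeat.

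The assay was reduced representation bisulfite sequencing (RRBS), in which DNA is cut at MspI and TaqI sites, unmethylated cytosines are converted by bisulfite, and fragment ends are sequenced. Sca1+Lin- bone marrow cells, which the labels call haematopoietic stem and progenitor cells (HSPCs), and B220+ cells of the blood, called mature B cells, were each taken from wild-type and from Sca1-BCL6Δ mice, which gave 4 libraries. All mice had the CBAxC57BL/6J background. Sca1-BCL6Δ mice carried a loxP-flanked Bcl6-IRES-eGFP cassette in the pLy6 vector, driven by the Sca1 promoter, and the mb1-Cre allele (Cd79atm1(cre)Reth), which was designed to remove the cassette once Cd79a is expressed. More than 1 transgenic line was made, and which of them gave the DNA, and the ages of the mice, are not given in the sources used here. The labels do not say whether wild-type mice carried the Cre allele. DNA of 6 to 9 mice was pooled for a library, so there was 1 library per condition and no value below has an error over animals. The markers of B cells and HSPCs could not be checked, because no file places genes on mm9.

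The 4 read files held 2614482 to 8336720 reads, and the median coverage of a CpG was 4 to 9 reads. The wild-type HSPC library was lower than the Sca1-BCL6Δ HSPC library at highly methylated CpGs. These CpGs were chosen by their level in B cells, which fixes the B cell values, so only the HSPC libraries are compared. Where both B cell libraries together reached 98% or more, at 4549 autosomal CpGs outside the interval, wild-type HSPCs had a mean of 84.8% and Sca1-BCL6Δ HSPCs one of 96.0%. The wild-type HSPC library enters the HSPC genotype comparison and the wild-type comparison of cell types, and the part of this gap in them was not tested. In addition, 3 groups of reads in the Rn45s interval occurred in the wild-type B cell library alone, with 5583 reads together. The read share, the mean level, the comparisons with that library, the read classes, the stack shares and the read-end CpGs are also given without them.

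Coverage of the Rn45s interval was far above that of the rest of the genome. The interval took 48766 reads in wild-type and 44658 in Sca1-BCL6Δ HSPCs, followed by 81964 for wild-type and 54447 for Sca1-BCL6Δ B cells. These were 0.987%, 1.71%, 0.983% and 1.51% of the reads of each file. The share was thus 1.73 times as high in Sca1-BCL6Δ as in wild-type HSPCs and 1.53 times as high in B cells. For B cells against HSPCs the factor was 0.996 for wild-type mice, while Sca1-BCL6Δ mice had 0.882. Without the reads seen in wild-type B cells alone, that library had 76381 reads or 0.917%, the genotype factor in B cells was 1.64, and the wild-type factor between cell types was 0.929. Median coverage of the CpGs was 755, 822, 1146.5 and 930.5 reads in the same order of libraries. Of the 251 CpGs, 205 had at least 10 reads in each of the 4 libraries and 181 had at least 100, while the other 46 fell short of 10 reads somewhere. Outside the interval only 139 CpGs had at least 100 reads in all 4 libraries. The edges of the interval lay in uncovered sequence. The first CpG inside, at 39979959, had 360 to 771 reads and levels of 46.4, 52.8, 41.0 and 55.0% in the same order. The nearest CpG before the interval lay 1537 bp away with 2 reads in 1 library. The last CpG inside, at 39985654, had 822 to 2012 reads and levels of 32.5, 42.6, 33.1 and 43.2%, and the next one lay 4901 bp beyond the end with 1 read in each of a pair of libraries.

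The Rn45s interval was partly methylated in every library. Over the 205 CpGs, the mean level was 23.5% in HSPCs of wild-type (SD over CpGs 12.7) and 33.1% in those of Sca1-BCL6Δ mice (SD 13.5), and 25.7% in B cells of wild-type (SD 11.1) and 37.7% in those of Sca1-BCL6Δ mice (SD 12). Without the CpGs of reads seen in wild-type B cells alone, 203 CpGs were left and the mean of wild-type B cells was 25.6%. No CpG was above 80% in any library, and the highest levels were 76.5, 74.8, 66.3 and 73.0%. Levels between 20 and 50% were found at 109, 159, 130 and 162 of the 205 CpGs in that order. As shares these were 53.2, 77.6, 63.4 and 79.0%. Among 70165 CpGs outside the interval with at least 10 reads in all 4 libraries, the same range held 17.5, 11, 10.9 and 9.63%. Among the 139 deep CpGs elsewhere it held 15.8, 18.0, 17.3 and 17.3%, and 27.3 to 36% of those deep CpGs were above 80%. CpGs below 20% numbered 89 and 72 in wild-type HSPCs and B cells but 27 and 17 in their Sca1-BCL6Δ counterparts.

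**Figure D1:**
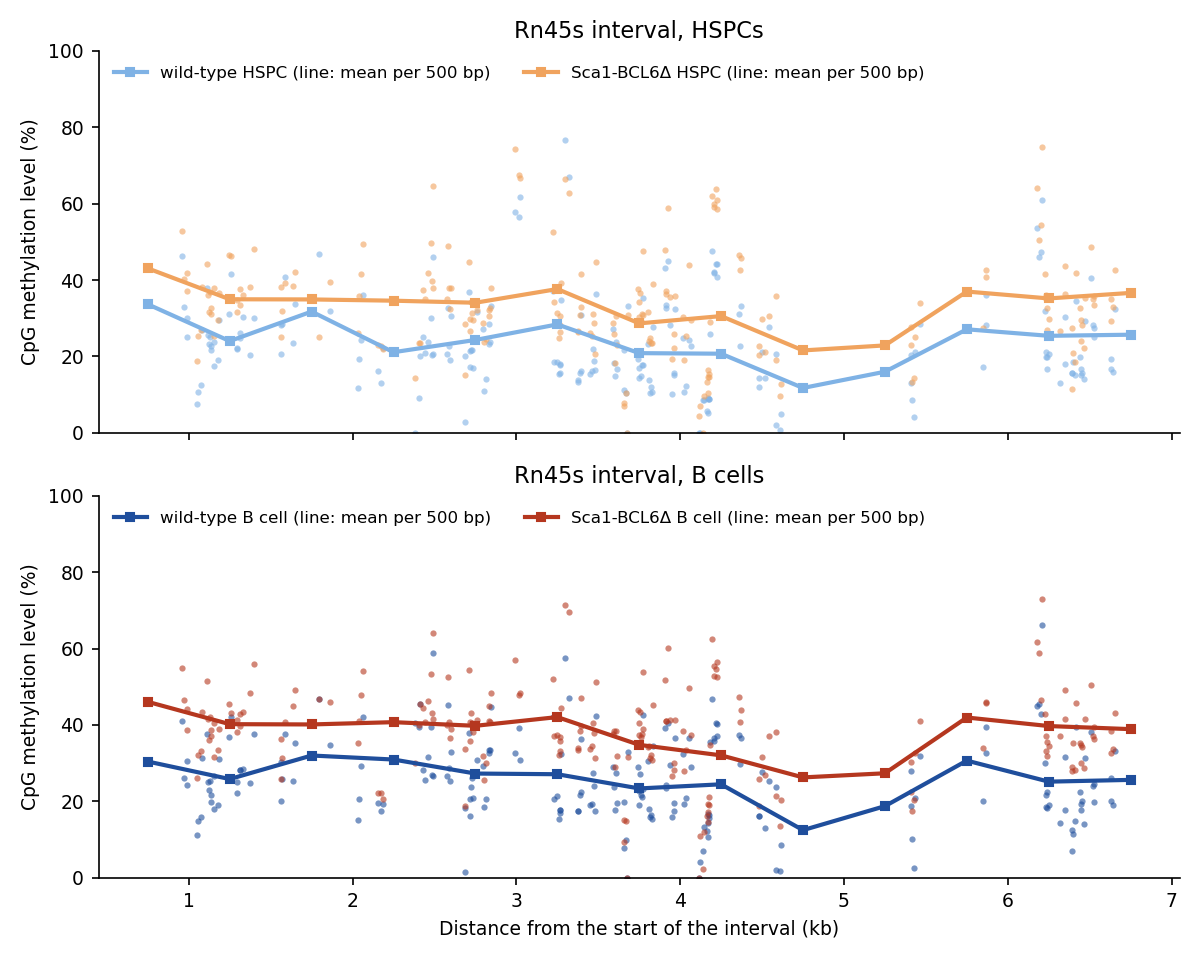
Methylation level of each Rn45s CpG (points, %) against its distance in kb from the start of the interval, with HSPCs above and B cells below and the 2 genotypes in separate colours. Lines join the means of 500 bp bins, and in every covered bin the Sca1-BCL6Δ line lies above the wild-type line in both cell types.

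The profile along the gene was similar in shape in all libraries. Across the 205 CpGs, which share reads and are not independent, Pearson's r between pairs of libraries was 0.822 to 0.923, the highest between both Sca1-BCL6Δ libraries. The interval was divided into bins of 500 bp, of which the first held no CpG and the other 13 held 3 to 33 CpGs with enough reads. The lowest bin was 39983500 to 39983999, where 6 CpGs had means of 11.8% in HSPCs of wild-type and 21.6% in those of Sca1-BCL6Δ mice, and 12.5% in B cells of wild-type and 26.3% in those of Sca1-BCL6Δ mice. The next bin, 39984000 to 39984499, also had 6 CpGs and means of 16.0, 22.9, 18.8 and 27.4%. In both of these bins the Sca1-BCL6Δ libraries were above the wild-type libraries, and each library was below its own mean over the gene. At the 5′ edge of the covered sequence, the 4 CpGs of the bin from 39979500 to 39979999 had 33.7, 43.1, 30.4 and 46.1%. The bin with the most CpGs, 39982500 to 39982999 with 33, had 20.9, 28.7, 23.4 and 34.8%.

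At single CpGs the range was wide. The highest mean level was at CpG 39985208, with 61.1% of 244 reads in HSPCs of wild-type and 74.8% of 115 in those of Sca1-BCL6Δ mice, and 66.3% of 329 in B cells of wild-type and 73.0% of 115 in those of Sca1-BCL6Δ mice. The Wilson 95% intervals were 54.8 to 67.0%, 66.1 to 81.8%, 61.0 to 71.2% and 64.3 to 80.3%, so the libraries overlapped in part. The lowest was CpG 39982678, where no read was methylated among 244, 406, 338 and 473 reads. A count of 0 allows up to 1.23, 0.739, 0.888 and 0.634% there. The deepest was CpG 39982247, with 18.6% of 2517 reads, 31.4% of 2641, 21.3% of 3483 and 37.4% of 3392. All 4 of its intervals, 17.2 to 20.2%, 29.7 to 33.2%, 20 to 22.7% and 35.8 to 39.0%, lay apart except those of the wild-type libraries, which overlapped slightly. Reads came from 18 cycles of PCR, and no removal of duplicates is stated, so these intervals cover counting error only.

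The first comparison asked how the Rn45s interval differed between genotypes in HSPCs, where the transgene was meant to be active. Over the 208 CpGs that reached 10 reads in each of the 2 libraries, Sca1-BCL6Δ HSPCs were higher by a mean of 9.45 percentage points (SD over CpGs 6.08). The level was higher at 195 CpGs, lower at 12 and equal at 1. Outside the interval the mean difference was 1.60 points over 99763 CpGs, with 43.4% of them higher. Over the 139 deep CpGs elsewhere the mean was 5.02 points and the median 2.99, with 94 higher, 35 lower and 34 above 10 points. Fisher's exact test with Benjamini-Hochberg adjustment over all CpGs of the genome, and a required difference of 20 points, called 0 of the 208 CpGs, beside 0.037% of all CpGs tested, of which 0.025% were higher and 0.012% lower. With a required difference of 10 points 83 were called higher, beside 0.135% of all. With the adjusted p alone 114 were called higher, beside 0.185%, and 0 lower under any of these rules, beside 0.012% under each. The interval was selected with this contrast known, and nothing is read from these counts.

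The HSPC difference was spread over the gene. In the 13 covered bins it ran from 3.18 points, at 39980500 to 39980999, to 13.5 points, at 39981000 to 39981499. The 3 CpGs with the largest rise lay near one another. CpG 39983054 had 24.3% of 440 reads in wild-type and 44.1% of 513 in Sca1-BCL6Δ HSPCs. CpG 39983366 had 22.8% of 2303 and 42.5% of 887, and CpG 39983219 had 44.3% of 305 and 63.9% of 119. For each of these 3 CpGs the Wilson intervals of both libraries lay apart, which the choice of the largest rises favours. Such intervals cover counting error only. The largest falls were at CpGs with 12 to 255 reads per library. CpG 39980794 had 46.9% of 32 reads in wild-type and 25% of 12 in Sca1-BCL6Δ HSPCs, with overlapping intervals of 30.9 to 63.6% and 8.89 to 53.2%. CpG 39982655 had 21.8% of 78 and 7.84% of 255, with intervals of 14.1 to 32.2% and 5.13 to 11.8% that lay apart. CpG 39982299 had 76.5% of 179 and 66.3% of 196, with overlapping intervals of 69.8 to 82.1% and 59.5 to 72.6%.

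In B cells, where Cre was meant to have removed the transgene, the Rn45s difference between genotypes had the same direction. Over 215 CpGs the Sca1-BCL6Δ library was higher by a mean of 11.9 points (SD over CpGs 7.13), with 202 CpGs higher, 10 lower and 3 equal. Outside the interval the mean difference was -0.39 points over 198024 CpGs, with 36.2% higher. Over the 139 deep CpGs elsewhere the mean was 2.11 points and the median 0.03, with 70 higher, 55 lower and 23 above 10 points. The test called 8 of 215 CpGs at 20 points, all higher, beside 0.0172% of all CpGs called in either direction, 0.0101% called higher and 0.00706% called lower. At 10 points it called 128 higher, beside 0.0802%, and 0 lower, beside 0.00706%. With the adjusted p alone it called 137 higher, beside 0.0858%, and 0 lower, beside 0.00757%. As in HSPCs, the contrast was known when the interval was picked. Without the CpGs of reads seen in wild-type B cells alone, the mean difference was 11.8 points and the calls at 20 points numbered 8. Bin differences ran from 7.57 points, at 39983000 to 39983499, to 15.6 points, at 39979500 to 39979999. CpG 39981990 had 32.6% of 129 reads in wild-type and 56.9% of 58 in Sca1-BCL6Δ B cells. CpG 39985396 had 11.5% of 131 and 35.3% of 51. CpG 39985347 had 17.8% of 580 and 41.5% of 436, with intervals of 14.9 to 21.1% and 37.0 to 46.2%. Over the 215 CpGs single differences ran from -22.0 to 42.4 points, and the CpGs named here had at least 10 reads in all 4 libraries. Among such CpGs the largest falls were small or shallow. CpG 39981383 had 40.5% of 37 reads and 30.0% of 10, CpG 39983139 had 7.14% of 42 and 2.27% of 44, and CpG 39982655 had 19.8% of 121 and 15.1% of 292.

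Set side by side, both cell types showed the higher level in Sca1-BCL6Δ mice at most Rn45s CpGs. Of the 181 CpGs with at least 100 reads in all 4 libraries, 171 were higher in Sca1-BCL6Δ in both cell types, 2 in HSPCs only, 6 in B cells only and 2 in neither. The B cell difference was the larger at 127 of the 181. Pearson's r between the HSPC and the B cell difference was 0.507 and Spearman's rho 0.513 across these CpGs, which share reads. These comparisons have no library in common. Over the 205 CpGs, both Sca1-BCL6Δ libraries were above both wild-type libraries at 169 and below both at 4. Wild-type HSPCs had the lowest level of the 4 libraries at 141 CpGs and wild-type B cells at 59, while Sca1-BCL6Δ B cells had the highest at 167. The interval was picked with the genotype contrast known. No share over all CpGs is given beside the counts of this paragraph, and nothing is read from them. Each genotype was a single pool in each cell type, so a difference between pools and one between genotypes cannot be told apart.

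**Figure D2:**
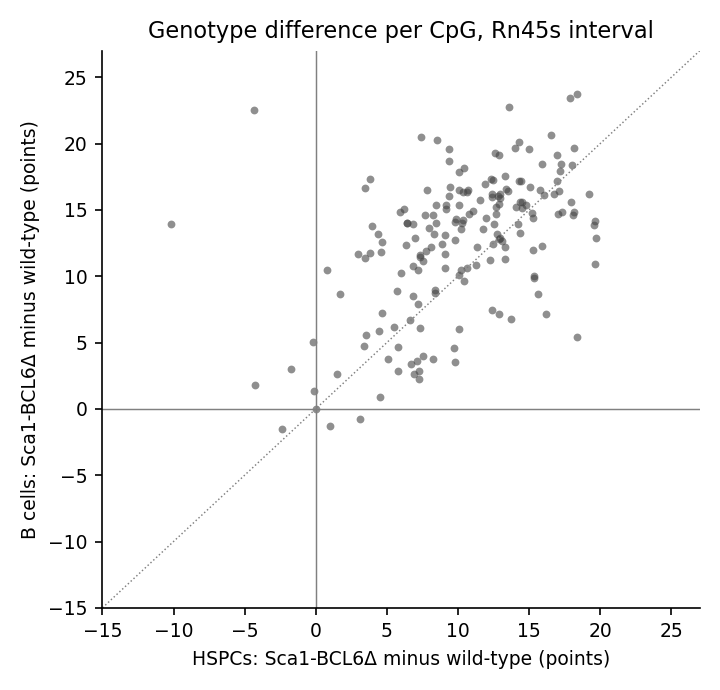
Difference in methylation level, Sca1-BCL6Δ minus wild-type in percentage points, in HSPCs (x axis) and B cells (y axis) for the Rn45s CpGs with at least 100 reads in all 4 libraries, 1 point per CpG. Most points, 171 of 181, lie at the upper right, above 0 on both axes, and 127 lie above the dotted line of equal difference.

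A small group of CpGs that were almost unmethylated in wild-type cells was methylated in part in Sca1-BCL6Δ cells. This group was chosen after the values were seen, as CpGs with at least 100 reads and under 5% in both wild-type libraries, and it held 5 CpGs. CpG 39983586 had 2.02% of 1087 reads in HSPCs of wild-type and 19.0% of 1006 in those of Sca1-BCL6Δ mice, and 2.17% of 1886 in B cells of wild-type and 21.3% of 1126 in those of Sca1-BCL6Δ mice. CpG 39983611 on the same reads had 0.663, 9.77, 1.90 and 13.6%. CpG 39981684 had 2.91, 15.3, 1.49 and 18.8%, and CpG 39984429 had 4.26, 14.4, 2.45 and 20.3%. At these 4 CpGs the wild-type intervals ended at 5.58% or lower, and those of the Sca1-BCL6Δ libraries began at 7.97% or higher. The fifth CpG, 39982678, was the one with no methylated read in any library. Picking CpGs that are low in wild-type libraries favours a higher value in the others, so the sizes describe these reads only.

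The second question was how B cells differed from HSPCs of the same genotype, a comparison that the rule for the interval did not use. In wild-type mice the Rn45s level was higher in B cells by a mean of 2.77 points (SD over CpGs 8.59) over 216 CpGs, with 147 higher, 67 lower and 2 equal. Outside the interval the mean difference was 5.52 points over 288889 CpGs, with 52.8% of them higher. The test at 20 points called 3 of 216 CpGs, beside 0.734% of all CpGs, and all 3 were lower in B cells, beside 0.0512% called lower and 0.682% called higher. CpG 39982023 fell from 61.7% of 115 reads to 30.8% of 3357 (adjusted p = 3.05e-07, Fisher's exact test), and 3160 of the B cell reads there belong to a group of reads that only this library had. CpG 39982320 fell from 67.1% of 173 reads to 47.0% of 304 (adjusted p = 0.0127, Fisher's exact test). CpG 39981990 fell from 57.8% of 90 reads to 32.6% of 129 (adjusted p = 0.0438, Fisher's exact test). CpGs 39982023 and 39981990 lie on the same group of minus-strand reads, so their calls share reads and are not independent. Without the CpGs of reads seen in wild-type B cells alone, 2 calls were left and the mean difference was 2.91 points. With a minimum of 50 reads in both libraries the mean difference was 1.74 points, and with 100 reads 1.86 points. At 10 points 3 CpGs were called higher, beside 0.697% of all, and 4 lower, beside 0.0515%. With the adjusted p alone, 40 CpGs were called higher, beside 0.715% of all, and 5 lower, beside 0.0519%. Rises reached 63.6 points over the 216 CpGs. Among CpGs with at least 10 reads in all 4 libraries, the largest rises were at shallow CpGs. These did not pass the test and lie on largely the same reads. CpG 39981383 had 0% of 17 reads and 40.5% of 37, CpG 39981405 had 9.09% of 22 and 39.6% of 48, and CpG 39981411 had 20% of 20 and 45.5% of 44.

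In Sca1-BCL6Δ mice the Rn45s level was higher in B cells than in HSPCs by a mean of 4.63 points (SD over CpGs 5.18) over 207 CpGs, with 180 higher, 26 lower and 1 equal. Outside the interval the mean difference was 0.32 points over 98201 CpGs, with 37.6% higher. The test at 20 points called 0 of 207 CpGs, beside 0.0183% of all CpGs. At 10 points it called 6 higher, beside 0.0152%, and 0 lower, beside 0.00915%. With the adjusted p alone it called 32 higher, beside 0.0467%, and 0 lower, beside 0.00915%. The deepest CpG, 39982247, was among these 32, with 31.4% in HSPCs and 37.4% in B cells (adjusted p = 0.00663, Fisher's exact test). In wild-type mice the same CpG had 18.6 and 21.3% (adjusted p = 0.244, Fisher's exact test). The CpGs with the largest differences, 39981411, 39980794 and 39981405 with higher and 39982018, 39982023 and 39981990 with lower levels in B cells, had 10 to 92 reads per library and did not pass. Those with lower levels lie on largely the same reads, as do 39981411 and 39981405. At CpG 39982018, for example, the levels were 67.4% of 92 reads and 47.8% of 90. Each cell type was a single library from another tissue, so the test compares the reads of these libraries and not the cell types.

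Single reads were used next to see how methylation was arranged on molecules. An aligned read spans at most 36 bp, and only reads with at least 4 CpGs were classed, of which there were 28971 in HSPCs of wild-type and 26533 in those of Sca1-BCL6Δ mice, and 47344 in B cells of wild-type and 31738 in those of Sca1-BCL6Δ mice. In both cell types the Sca1-BCL6Δ library had more fully methylated and fewer unmethylated reads than the wild-type library. Reads with every CpG methylated made up 11.3, 17.5, 11.6 and 23.3% in that order. Reads with no methylated CpG made up 60.9, 51.2, 54.8 and 47.4%. Mixed reads made up 27.8, 31.3, 33.6 and 29.3%. Outside the interval, fully methylated reads had nearly the same share in all libraries, 12.2, 12.3, 12.3 and 12.5%, and mixed reads had 17.9, 11.6, 16.9 and 13.1%. Mixed reads were thus a larger share in the interval than outside it in each library. In HSPCs the mixed share was higher in Sca1-BCL6Δ mice, and in B cells it was lower, so the mixed class had no common direction. Without the stacks seen in wild-type B cells alone, that library had 11.7% fully methylated, 54.2% unmethylated and 34.1% mixed reads.

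**Figure D3:**
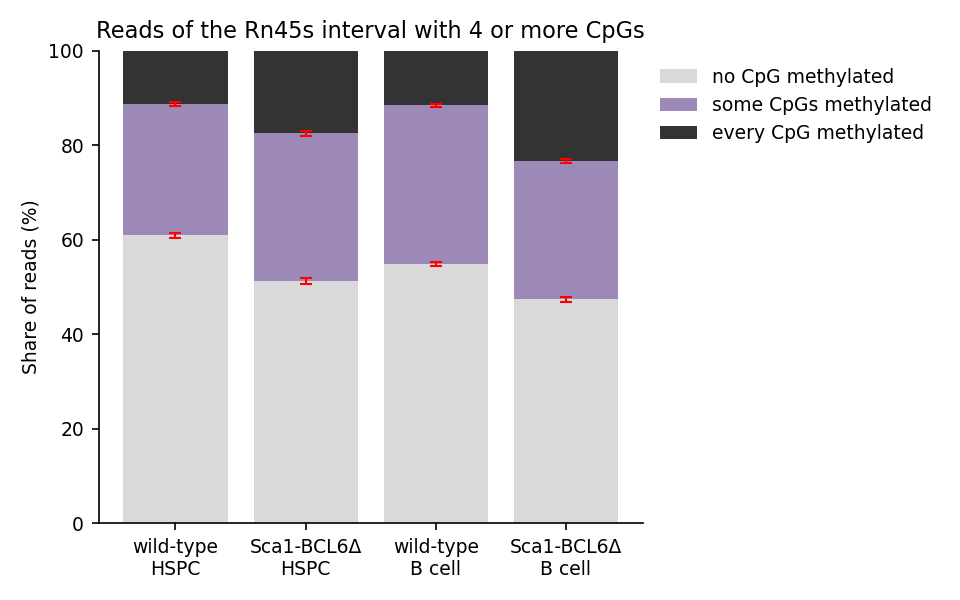
Share of Rn45s reads with 4 or more CpGs (%, y axis) that had no, some or every CpG methylated, stacked to 100% for each of the 4 libraries (x axis), with Wilson 95% intervals. The fully methylated share is 11.3 and 11.6% in the wild-type HSPC and B cell libraries and 17.5 and 23.3% in the Sca1-BCL6Δ libraries.

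The same held for reads of any number of CpGs. Among reads with 2 CpGs, the fully methylated share was 17.3% in HSPCs of wild-type and 30.2% in those of Sca1-BCL6Δ mice, and 17.6% in B cells of wild-type and 34.5% in those of Sca1-BCL6Δ mice. Among reads with 8 CpGs, the most seen in 1 read, it was 7.57, 18.1, 12.9 and 25.8%, with 964 to 1567 reads per library. Each number of CpGs from 1 to 8 gave a higher fully methylated share in the Sca1-BCL6Δ library of both cell types.

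RRBS reads of 1 fragment end share a strand and the CpG nearest their 5′ end, and such a group is called a stack here and named by that CpG. Within a stack, CpGs of the same read were methylated together more often than separate CpG levels would give. In 27 stacks with at least 4 CpGs and at least 100 reads of the commonest CpG set in each library, the median fully methylated share was 11.8% in HSPCs of wild-type and 20.1% in those of Sca1-BCL6Δ mice, and 12% in B cells of wild-type and 26.2% in those of Sca1-BCL6Δ mice. The product of the single CpG levels, which is the share to be seen if CpGs were methylated independently, had medians of 0.0279, 0.190, 0.0591 and 0.529%. The observed share was above that product in 25, 27, 27 and 27 of the 27 stacks. Unmethylated reads had medians of 59.9, 50.7, 55.0 and 45.8% against products of 29.0, 14.2, 25.3 and 9.11%. They were above the product in all 27 stacks of each library.

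The 6 stacks with the most reads and at least 4 CpGs had this form. In the minus-strand stack at 39982967, with 5 CpGs, reads with all CpGs methylated were 10.4% of 1090 reads in HSPCs of wild-type and 16.9% of 1208 in those of Sca1-BCL6Δ mice, and 14.7% of 1357 in B cells of wild-type and 23.2% of 1386 in those of Sca1-BCL6Δ mice. In the stack at 39985471, with 6 CpGs, they were 10.7, 16.4, 10.04 and 21.1%, and in the one at 39982484, also with 6 CpGs, 9.41, 14.2, 9.55 and 23.9%. In the stack at 39980314, with 4 CpGs, they were 13.1, 22.2, 12 and 28.9%. In that at 39980184, also with 4, they were 11.6, 16.9, 10.3 and 22.5%. The stack at 39982397, with 5 CpGs, had 11.8, 22.4, 14.4 and 29.6%, and its unmethylated reads were 68.2, 57.9, 63.2 and 51.9%. In each of the 6 stacks the fully methylated share was higher in Sca1-BCL6Δ than in wild-type libraries of both cell types and highest in Sca1-BCL6Δ B cells.

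The stacks with the nearly unmethylated CpGs were picked by those CpGs, and a read is fully methylated only if that CpG is. Their shares therefore restate the choice and are given as values only. In the plus-strand stack at 39983583, with 4 CpGs, reads with every CpG methylated were 0 of 1012 in HSPCs of wild-type and 3.41% of 820 in those of Sca1-BCL6Δ mice, and 0.168% of 1783 in B cells of wild-type and 8.33% of 948 in those of Sca1-BCL6Δ mice. In the minus-strand stack at 39984432, with 5 CpGs, they were 0.745, 3.37, 0.380 and 4.28%. In the minus-strand stack at 39981687, with 2 CpGs, they were 2.93, 15.4, 1.49 and 18.8%. The stack at 39982681, which holds the CpG without a methylated read, had no fully methylated read among 69, 179, 112 and 235 reads of its commonest set.

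The CpG at the 5′ end of a read, which lies in the restriction site, was more methylated than the other CpGs of its stack. In the interval, end CpGs against the others had means of 33.4 and 20.7% in wild-type HSPCs over 50 stacks. In Sca1-BCL6Δ HSPCs they had 40.7 and 31.8% over 49 stacks. In wild-type B cells the means were 36.5 and 23.6% over 53 stacks, and in Sca1-BCL6Δ B cells 44.4 and 36.2% over 49. The end CpG was the higher in 50 of 50, 42 of 49, 53 of 53 and 42 of 49 stacks. Without the stacks seen in wild-type B cells alone, it was the higher in 51 of 51 in that library, with means of 36.8 and 23.8%. Outside the interval the gap had the same sign, with means of 10.8, 7.0, 8.83 and 6.60 points against 12.6, 8.93, 12.9 and 8.25 points inside. The gap was larger in the wild-type libraries, so the genotype difference was smaller at end CpGs. Without these CpGs the mean genotype difference was 10.5 points in HSPCs and 13.1 points in B cells.

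**Figure D4:**
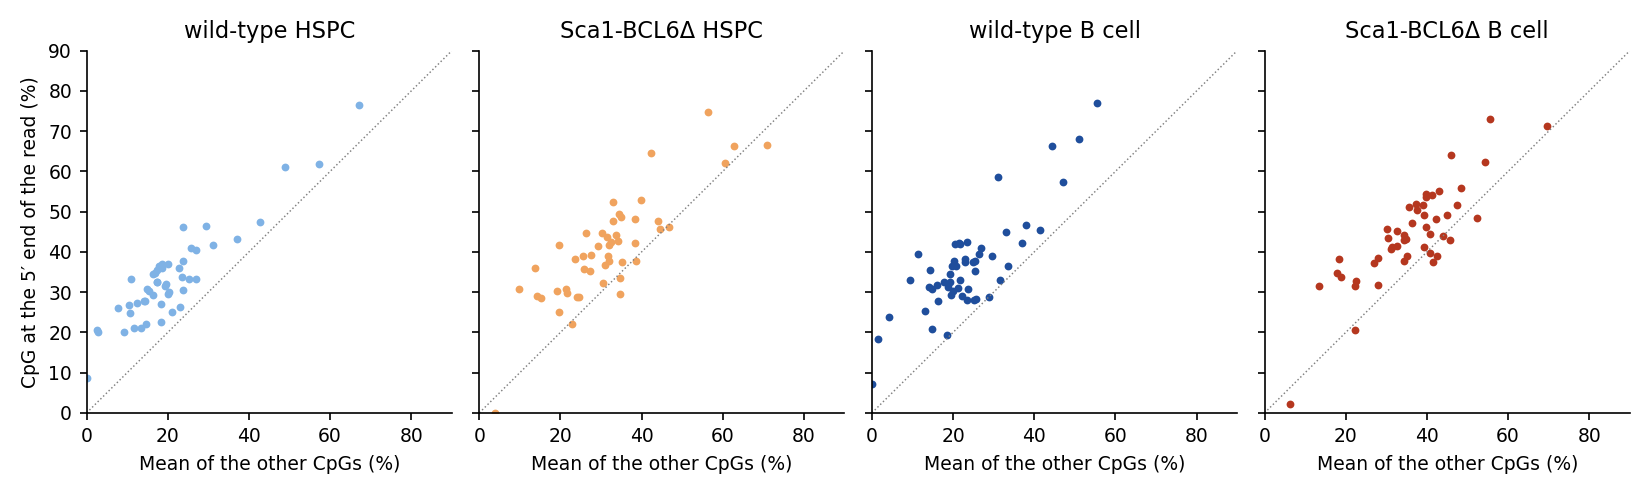
Level of the CpG at the 5′ end of reads (y axis, %) against the mean level of the other CpGs of the same stack (x axis, %), 1 point per Rn45s stack and 1 panel per library, with a dotted line of equality. All 50 and 53 points of the wild-type HSPC and B cell libraries lie above the line, and 42 of 49 in each Sca1-BCL6Δ library.

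Read depth along the interval also differed between the libraries of the genotypes. The interval held 183 stacks, of which 48 had at least 100 reads in each library. Some of the 183 hold only CpGs of a deeper stack beside them, so 183 is not a count of fragment ends. The share of a library's interval reads that a stack took differed between genotypes by factors of 0.389 to 3.22 in HSPCs and 0.264 to 4.00 in B cells. Between cell types of 1 genotype the factors were 0.627 to 1.31 for wild-type mice, while Sca1-BCL6Δ mice had 0.795 to 1.35. More than 1.5 times higher in Sca1-BCL6Δ in both cell types were 5 stacks, and more than 1.5 times lower in both were 5. No stack moved in opposite directions by that factor, and 32 stayed within it in both. Leaving out the stacks seen in wild-type B cells alone lowers every B cell factor of a stack or fragment by the same proportion, which gives 0.246 to 3.73 for the B cell range, with 5, 5, 0 and 33 stacks in these classes. The range between cell types of wild-type mice is then 0.673 to 1.41. The minus-strand stack at 39983183 took 10.4 of 1000 interval reads in HSPCs of wild-type and 23.6 in those of Sca1-BCL6Δ mice, and 8.03 in B cells of wild-type and 29.7 in those of Sca1-BCL6Δ mice. The minus-strand stack at 39983370, close by, took 47.3, 20, 54.5 and 17.2 of 1000. Without the stacks seen in wild-type B cells alone, that library gave 8.61 and 58.5 of 1000 at these stacks. The libraries of 1 genotype were therefore near one another at both stacks, and those of different genotypes far apart in opposite directions. Both stacks are given as examples. Each condition had 1 pooled library, so genotype and library cannot be told apart in these shares.

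**Figure D5:**
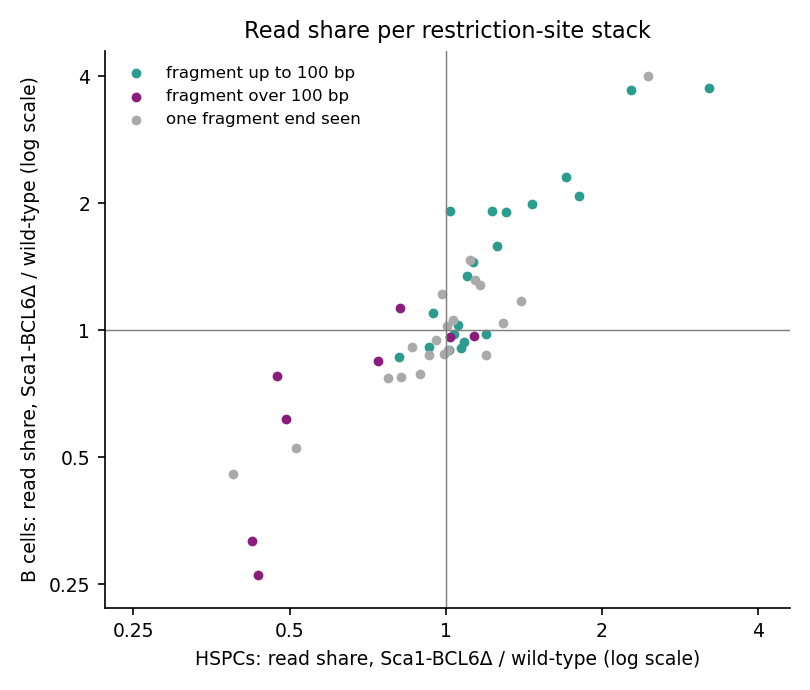
Read share of each Rn45s stack with at least 100 reads in all 4 libraries, Sca1-BCL6Δ divided by wild-type, in HSPCs (x axis) and B cells (y axis), both on log scales and coloured by fragment length. Points are single stacks, and the stack at 39979959 on a fragment of 124 bp lies at 1.13 in HSPCs. With both ends summed, which is not plotted, fragments over 100 bp had at most 1.04 in HSPCs. The highest values, up to 3.22 and 4.00, belong to short fragments or to stacks with 1 end seen.

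Fragment length went with this depth. For 15 fragments both ends were found. The fragment given as 52 bp starts at a shallow plus-strand stack at 39981443, whose CpG also lies in the deeper stack at 39981430. The 11 of 37 to 100 bp had read shares in Sca1-BCL6Δ of 0.890 to 2.54 times those in wild-type HSPCs, with a median of 1.12, and of 0.880 to 3.72 times in B cells, with a median of 1.40. The 4 of 124 to 178 bp had 0.424 to 1.04 times, with a median of 0.625, and 0.309 to 0.967 times, with a median of 0.845. The shortest fragment, 39983148 to 39983184 with 37 bp, had the largest factors, 2.54 and 3.72, and the longest, 39983194 to 39983371 with 178 bp, the smallest, 0.424 and 0.309. Over 54055 fragments of the whole genome, reads of fragments up to 100 bp made up 60.4% in HSPCs of wild-type and 73.0% in those of Sca1-BCL6Δ mice, and 61.2% in B cells of wild-type and 65.6% in those of Sca1-BCL6Δ mice. In the Rn45s interval they made up 69.2, 81.1, 68.7 and 82.1%.

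Level differences were also summarised by the depth class of a stack. Over the 48 stacks, the level was higher in Sca1-BCL6Δ at 46 in HSPCs and 47 in B cells, with median differences of 9.92 points (range -7.31 to 18.5) and 13.2 points (range -0.37 to 21.3). Even depth means within a factor of 1.5 between genotypes in both cell types. In the 32 stacks of even depth the medians were 10.3 points (range -7.31 to 18.5) in HSPCs and 14.4 points (range 2.79 to 21.3) in B cells. Fragment length was known for 15 of these stacks. In the 5 that were deeper in Sca1-BCL6Δ in both cell types the medians were 4.94 and 4.20 points. In the 5 that were shallower in both they were 15.5 and 14.2 points. Over the CpGs of even stacks alone, the mean genotype difference was 10.6 points in HSPCs and 13.4 points in B cells. The part of depth and fragment length in these level differences was not tested, for even stacks or for the others.

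The places elsewhere with levels most like those of Rn45s were found by a fixed measure. Likeness was taken as the Euclidean distance between the 4 library means of a 1 kb tile and those of the interval, over the 23 tiles outside it with at least 3 CpGs of at least 50 reads in each library. The nearest was chromosome 11, 108873001 to 108874000, at a distance of 4.51 points, where 11 CpGs had means of 25.9% in HSPCs of wild-type and 34.7% in those of Sca1-BCL6Δ mice, and 26.6% in B cells of wild-type and 41.0% in those of Sca1-BCL6Δ mice. Next came chromosome 13, 44965001 to 44966000, at 9.64 points, with 5 CpGs and 24.0, 37.4, 25.5 and 46.2%. The third was chromosome 6, 3151001 to 3152000, at 13.8 points, with 3 CpGs and 33.9, 37.8, 30.9 and 43.3%. In these 3 tiles both Sca1-BCL6Δ means were above both wild-type means, as in the interval, which the choice by distance favours. Their median coverage was 718 to 1818 reads per library, against 4 to 9 over all CpGs of a library, so they too were places of very high depth.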

How the data were processed

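RRBS was done on 4 pooled libraries, grouped from the labels. According to the deposited methods text, the authors aligned reads without gaps to 36-bp ends of predicted fragments with a proprietary Zymo Research pipeline, whose version is not given in the sources used here. A read was dropped when its second-best alignment was too close. The build was mm9, per the submitters' processing notes. The deposited CpG tables gave methylated and total read counts per CpG and a score, found to be the methylated share times 1000 without decimals. The deposited read tables gave a CpG count and a percent methylation for each read. The authors' tables record no duplicate removal.

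Levels were computed from the counts. CpGs that reached 10 reads in each library compared entered Fisher's exact test, two-sided, adjusted by Benjamini-Hochberg over the whole table, and a call needed an adjusted p under 0.05 and 20 points. The test code was checked on simulated data. Named CpGs, with at least 10 reads in all 4 libraries, were the 3 with the largest difference in each direction per comparison, the highest, the lowest and the deepest. Named stacks were the 6 most read with at least 4 CpGs. Members and lists were chosen with earlier results of these data known. Python 3.11.15, pandas 2.3.3, NumPy 2.4.6, SciPy 1.17.1 and matplotlib 3.10.9 were used. Alternatives changed the coverage minimum, the weighting, the spacing of CpGs, the call rule and the reads kept.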

Additional observations from a re-analysis of the deposited data

Results flagged for a closer look

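Reads of 3 Rn45s stacks were found in the wild-type B cell library alone, with 0 reads in each of the other libraries. The plus-strand stack at 39982023 had 3160 reads with a level of 17.9%, the one at 39985075 had 1770 reads with 25.9%, and the one at 39981066 had 653 reads with 38.2%. Elsewhere in the genome that library had 3 further stacks of at least 100 reads with 0 in the others, and none of the other 3 libraries had such a stack anywhere. Without these stacks the mixed-read share of wild-type B cells was 34.1% in place of 33.6%.

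At 3 of the named Rn45s CpGs the genotype difference had opposite signs in the cell types, with 1 library per condition. The difference between cell types was not tested. CpG 39982299 was lower by 10.2 points in Sca1-BCL6Δ HSPCs (-10.2) and higher by 13.9 points in Sca1-BCL6Δ B cells, with 179 to 317 reads per library. CpG 39982320, which lies next to it on the same reads, had -4.35 points in HSPCs and 22.5 points in B cells, with 173 to 304 reads. CpG 39981383 had 14.3 points in HSPCs and -10.5 points in B cells, with 10 to 37 reads.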

How the results depend on the processing

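All 4 mean differences of the Rn45s interval kept their sign under every alternative run, including 4 restrictions of the CpGs added after seeing the data. They ranged from 8.26 to 10.6 points for the HSPC genotype, 10.8 to 13.4 for the B cell genotype, 1.74 to 3.72 for wild-type and 4.00 to 5.57 for Sca1-BCL6Δ B cells against HSPCs. The following values left the counting interval of the reported ones. A minimum of 5 reads gave 8.26 (HSPC genotype) and 5.57 points (Sca1-BCL6Δ cell types), 50 reads gave 1.74 (wild-type cell types), and 100 reads gave 10.1 (HSPC genotype) and 1.86 (wild-type cell types). CpGs more than 50 bp apart gave 10.8 (B cell genotype), 3.72 (wild-type) and 4.00 points (Sca1-BCL6Δ). Without read-end CpGs the genotype differences were 10.5 and 13.1 points, and in even stacks 10.6 and 13.4, with 2.11 for wild-type cell types. Calls at 10 points, and at the adjusted p alone, numbered 83 and 114 for the HSPC genotype, 128 and 137 for the B cell genotype, 7 and 45 for wild-type, and 6 and 32 for Sca1-BCL6Δ cell types. The shares of all CpGs called under these rules are given above by direction. Bonferroni adjustment left 1 wild-type call, and thinned coverage gave 1 HSPC genotype call. No share of all CpGs is given for Bonferroni adjustment or thinned coverage, and nothing is read from those counts. With reads of at least 5 CpGs the mixed share was 29.3, 33.1, 35.3 and 30.6% in wild-type and Sca1-BCL6Δ HSPCs, then wild-type and Sca1-BCL6Δ B cells. With at least 3 CpGs it was 30.6 and 28.3% in the Sca1-BCL6Δ HSPC and B cell libraries, and without the stacks of 1 library it was 34.1% in wild-type B cells. The cause of these shifts was not tested. No paired analysis was possible because each condition had 1 library. Depth limits 46 of the 251 CpGs, which had under 10 reads in at least 1 library.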
